A study of Mus musculus with 27 samples.

Results

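The E2F and DP transcription factors are described here across stem cells that lack Zfp512b and their differentiated progeny. The set holds the 8 E2F genes, E2f1 to E2f8, and the DP genes Tfdp1 and Tfdp2, chosen by name, which makes 10 of the 25209 genes listed at each stage. RNA was sequenced from V6.5 mouse embryonic stem cells (mESCs) that were unedited (WT) or belonged to the Zfp512b knockout (KO) lines KO4 and KO8. Each KO line is 1 clone, made by inserting a transcription stop cassette behind an early exon together with a selectable marker, and the WT cells had not passed through editing or selection. Both clones were among those whose growth differed least from WT. The cells were naïve (day 0, in 2i and LIF; 3 libraries per genotype), primed (day 2, in serum and LIF; 2 libraries per genotype), or had been carried through embryoid bodies to neural progenitor cultures with retinoic acid (NPCs, day 10) or to cardiomyocyte cultures with vitamin C (CMs, day 7.5), with 2 libraries per genotype each. The 27 libraries held an estimated 34200000 to 39600000 counted reads each in naïve cells and 15100000 to 19400000 at the other stages. Only means over WT and KO libraries together were deposited as levels, and the reads of single libraries were recovered from them for primed cells, NPCs and CMs, mostly for genes with a mean under 1000 normalized reads. This gave library values for 11 of the 40 combinations of a member and a stage, which cover 6 of the 10 genes. The other 29, including every member in naïve cells, and E2f3, E2f4, Tfdp1 and Tfdp2 at all stages, have a pooled level but no test against WT.

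E2F proteins bind DNA next to the start of genes for DNA synthesis and cell division, mostly as dimers with a DP protein. E2f1, E2f2 and E2f3 are known as activators, E2f4 and E2f5 act mainly as repressors with the pocket proteins Rb1, Rbl1 and Rbl2, and E2f6 represses without pocket proteins. E2f7 and E2f8 are the atypical members, which bind DNA without a DP partner and repress E2F targets late in the cycle. In stem cells G1 is short and the pocket proteins are held largely inactive by cyclin-dependent kinases, and in many lineages this restraint returns as cells differentiate.

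Several members carry E2F motifs at their own starts, and sites of 4 are shown. Whether these sites have a part in the changes of level described below was not tested. The 8-letter words TTTCCCGC, TTTCGCGC, TTTGCCGC and TTTGGCGC were searched on both strands from 250 bases before to 50 bases after each annotated start of a protein-coding transcript in mm9. At least 1 match was found for 5 of the 10 members (50.0%), for 29 of 51 S phase target genes (56.9%) and for 751 of all 18446 genes (4.07%). With the outermost start of each gene alone the counts were 4 of 10, 19 of 51 and 536 of 18446 (2.91%), and E2f8 was the member that dropped out. In the lines below capitals mark the match, and a match on the opposite strand is printed as it reads along the gene.
E2f1 site A, chr2:154395606-154395635, minus strand: gtggctctttcGCGGCAAAaaggatttggc
E2f1 site B, chr2:154395593-154395622, minus strand: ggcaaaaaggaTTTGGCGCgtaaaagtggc
E2f7, chr10:110182286-110182315, plus strand: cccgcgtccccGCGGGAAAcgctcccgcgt
E2f8, chr7:56136563-56136592, minus strand: tcccgctttccGCGCCAAAtttttaaatcg
Tfdp1, chr8:13338697-13338726, plus strand: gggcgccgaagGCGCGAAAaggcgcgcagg
The E2f1 matches lie 5 to 12 and 18 to 25 bases past the outermost start and overlap in the stretches printed. Counted from the start, the E2f7 match lies at positions -224 to -217 and the Tfdp1 match at -43 to -36, and the E2f8 match lies at -170 to -163 from its inner start.

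Levels per length were compared first, as reads scaled to 1000000 per library (CPM) per kilobase of exon. They come from the authors' means over WT and KO libraries, averaged over the KO4 and the KO8 table. Tfdp1, the main dimerization partner of the E2F proteins, was highest at every stage, at 153 in naïve cells, 162 in primed cells, 86.5 in NPCs and 112 in CMs. E2f4, a repressor that acts in resting cells, came next at every stage, at 127, 160, 58.4 and 72.9. The lowest level belonged to E2f2 at 3.40 in naïve cells, 3.49 in NPCs and 2.69 in CMs, and to the atypical E2f7 at 5.20 in primed cells. The spread over libraries is unknown for such pooled means, so neighbours in the order were not tested. The stages were also normalized separately by the authors and may have been sequenced at different times, which cannot be told apart from the stage.

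**Figure D1:**
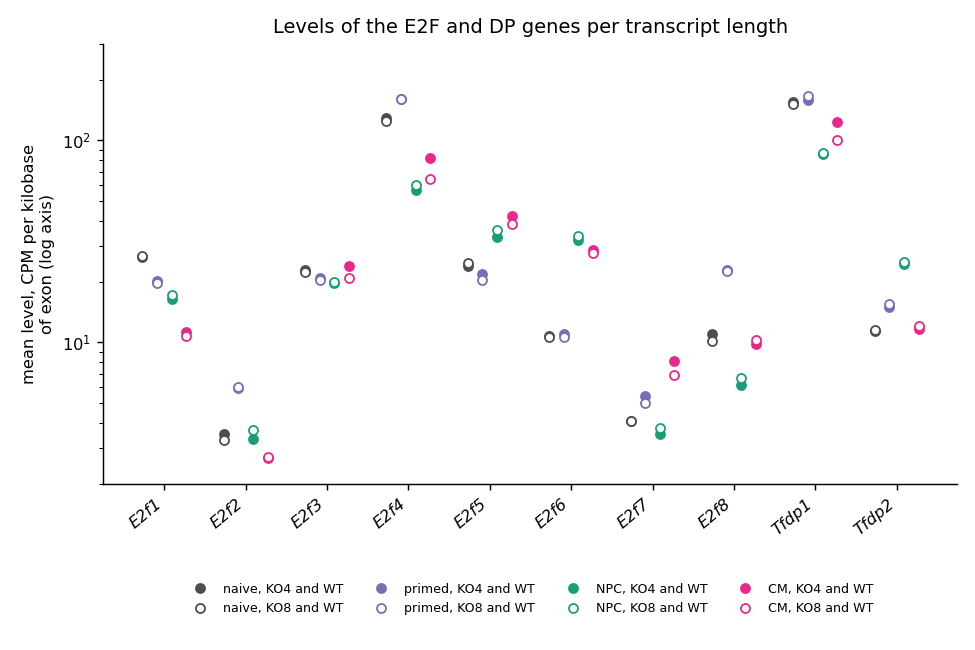
Pooled level of the 10 genes per length (CPM per kilobase of exon, log axis) at the 4 stages, as points: filled from the table of KO4 and WT, open from that of KO8 and WT. Tfdp1 and E2f4 sit on top at every stage, and E2f3 varies least along differentiation.

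Among the activators, E2f1 stood at 26.5 in naïve cells, 19.9 in primed cells, 16.7 in NPCs and 11.0 in CMs on this pooled scale, whereas E2f3 lay between 19.7 and 22.6. The highest stage exceeded the lowest by 2.41 times for E2f1 and by 1.15 times for E2f3. E2f6, which works within a Polycomb complex, was 10.7 and 10.8 in the stem cell states against 32.9 in NPCs and 28.2 in CMs, a range of 3.06 times. E2f5 was also highest in the differentiated cultures, at 34.6 and 40.3 against 24.4 and 21.1. The widest range was that of E2f8 at 3.53 times, with 22.7 in primed cells and 6.41 in NPCs. Tfdp2, the second DP gene, peaked in NPCs at 24.7 and lay between 11.4 and 15.2 elsewhere.

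In WT cells alone, the library values allowed tests of some of these differences (limma, Benjamini-Hochberg over all genes fitted). The size factors came from the genes recovered at the stages compared, which leaves out most genes of high level, and each value is followed by that with every stage scaled to its own total, the scale of the library values printed further on. E2f2 was lower in WT NPCs than in WT primed cells by a log2 difference of -1.26 (SE 0.14, adjusted p = 7.6e-09), or -0.73 on the second scale (adjusted p = 3.8e-05). It was lower in WT CMs than in primed cells by -1.79 (SE 0.14, adjusted p = 1.1e-11), or -1.55 (adjusted p = 1.8e-10). E2f7 was lower in WT NPCs than in primed cells by -0.95 (SE 0.09, adjusted p = 8.6e-09), or -0.42 (adjusted p = 0.00024), so the size of this step depends on the scaling and its direction does not. Between the differentiated cultures, WT CMs held less E2f1 than WT NPCs, with a log2 difference of -0.69 (SE 0.10, adjusted p = 1.6e-05), or -0.94 (adjusted p = 4.4e-07). They held more E2f8, with 0.79 (SE 0.10, adjusted p = 2.7e-06), or 0.53 (adjusted p = 0.00012). Thus the activator and the atypical repressor stood in opposite order in the cultures compared.

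Before the KO comparisons, the target was checked where its reads could be recovered. Zfp512b was at 52.7 and 55.4 CPM in the primed WT libraries, at 11.1 and 12.7 in KO4 and at 10.6 and 8.89 in KO8. In CMs it was at 61.1 and 57.2 in WT against 10.3 and 11.7 in KO4 and 8.48 and 9.51 in KO8. Every KO library thus lay below every WT library, and the log2 fold changes of Zfp512b, from -2.65 to -2.14, passed the test in both clones at both stages (limma, largest adjusted p = 4.0e-08). Zfp512b reads were not resolved in NPCs, and none are resolved in naïve cells.

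In CM cultures all 3 members with library values, E2f1, E2f2 and E2f8, were higher than WT in both clones, by 1.3 to 1.88 times. Of the 9851 genes tested in CMs, 57.4% were called in KO4 and 27.4% in KO8 (adjusted p under 0.05), and 5.66% were higher in both clones and 7.73% lower in both. The median log2 fold change of the 3 members was 0.75 in KO4 and 0.63 in KO8, against -0.01 and 0.00 over all genes tested. Only 3 of the 10 genes were measurable in this way, and both clones share the WT libraries they are set against.

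E2f1, the activator best known for driving S phase entry, was at 25.2 and 27.3 CPM in the WT CM libraries, at 44.5 and 44.7 in KO4 and at 39.1 and 42.5 in KO8. The lowest KO library lay well above the higher WT library, and the 2 clones lay close together. The log2 fold change was 0.75 (SE 0.09, 95% interval 0.56 to 0.95, adjusted p = 9.5e-06, limma) in KO4 and 0.63 (SE 0.09, 0.43 to 0.82, adjusted p = 0.00020) in KO8. These correspond to 1.69 and 1.54 times the WT level. The KO4 and KO8 CM means were 44.6 ± 0.194 and 40.8 ± 2.37 CPM (SD, n = 2). With each stage scaled to its own total, these lay under the WT NPC mean of 51.2 ± 7.11 (SD, n = 2). With size factors from the genes recovered at both stages, WT CM minus WT NPC was -0.69, about the size of the KO effects. The order of KO CMs and WT NPCs thus depends on the scaling and was not tested.

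E2f2, the activator with the lowest level per length, was at 10.4 and 7.6 CPM in WT, at 16.9 and 17.4 in KO4 and at 16.9 and 17.3 in KO8. The 4 KO libraries lay within 1 CPM of each other and above both WT libraries, which differed from one another more than the KO libraries did. The log2 fold change was 0.91 (SE 0.16, 95% interval 0.57 to 1.24, adjusted p = 0.00020) in KO4 and 0.90 (SE 0.16, 0.57 to 1.24, adjusted p = 0.00068) in KO8, or 1.88 and 1.87 times WT. Without the shallower WT library both were 0.69, so the size rests in part on that library. The difference between the clones was 0.00 with a 95% interval from -0.33 to 0.34 (adjusted p = 0.98), so a difference of up to about that size was not detectable here.

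E2f8, the atypical repressor, was at 48.9 and 43.1 CPM in WT, at 61.5 and 58.2 in KO4 and at 66.2 and 63.2 in KO8. All KO libraries again lay above the WT libraries, with the KO8 libraries on top. The log2 fold change was 0.38 (SE 0.08, 95% interval 0.20 to 0.56, adjusted p = 0.0015) in KO4 and 0.49 (SE 0.08, 0.31 to 0.67, adjusted p = 0.00066) in KO8. E2f8 overlaps the long non-coding gene Gm2788 on the other strand (chr7:56133328-56141978, mm9), and the strand setting of the counting is not given in the sources used here, so reads of the pair cannot be told apart.

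**Figure D2:**
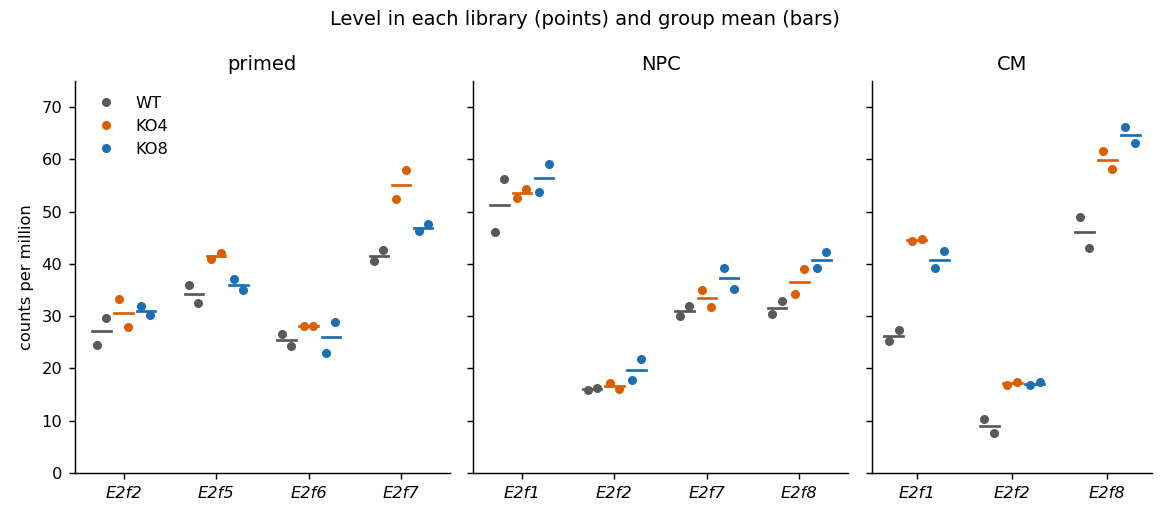
Level of each recovered E2F gene in single libraries (points, CPM) and the group mean (bars) for WT, KO4 and KO8 in primed cells, NPCs and CMs, 2 libraries per group. In CMs the KO libraries of E2f1, E2f2 and E2f8 lie above both WT libraries, while several groups overlap in primed cells and NPCs.

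Markers of other cell types moved in the same CM libraries, and most of all in KO4. The 3 recovered cardiac markers of 7 summed to 196 to 226 CPM in WT, 4.21 to 4.70 in KO4 and 173 to 183 in KO8. Neural markers, 6 of 7 recovered, summed to 38.9 to 50.3 CPM in WT, 508 to 516 in KO4 and 31.2 to 34.7 in KO8. Of the endoderm markers, 3 of 5 summed to 147 to 201, 9.17 to 17.8 and 277 to 281 CPM, and 5 of 7 naïve stem cell markers to 93.8 to 114, 132 to 171 and 121 to 125 CPM. The KO4 cultures on the CM protocol were thus nearly without these 3 cardiac markers and rich in neural ones, whereas KO8 was a little below WT for the same 3. Over all 7 cardiac markers only the authors' means are known. They summed to 1209 CPM for KO4 and WT together and 1801 CPM for KO8 and WT together. The 3 recovered markers were thus a small part of the list by level. The level of the full list in KO8 alone, and so its distance from WT, is not given by these values. None of these recovered markers was at 0 in all CM libraries, and the part of the change in culture makeup in the E2F values was not tested. In bulk RNA, a different share of cells of a type and a different amount of RNA per cell cannot be told apart.

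KO4 and KO8 differed from each other at 55.3% of the genes tested in CMs, and none of the 3 E2F genes was among those. The difference KO4 minus KO8 was 0.13 on the log2 scale for E2f1 (95% interval -0.07 to 0.33, adjusted p = 0.25) and -0.11 for E2f8 (-0.29 to 0.07, adjusted p = 0.28).

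In NPCs no member passed the test in either clone (limma, adjusted p under 0.05), and 4 members, E2f1, E2f2, E2f7 and E2f8, had library values. Of 9826 genes tested, 7.84% were called in KO4 and 11.9% in KO8, with 3.65% higher and 1.62% lower in both clones. At an unadjusted p under 0.05, none of the 4 was past the threshold in KO4, where 20.6% of all genes were, and E2f7 and E2f8 were in KO8, where 25.5% of all genes were.

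E2f8 came nearest to the threshold in NPCs, at 30.4 and 32.8 CPM in WT, 34.2 and 39.0 in KO4 and 39.3 and 42.2 in KO8. Both clones lay above WT without overlap. The log2 fold change was 0.21 (SE 0.11, adjusted p = 0.34) in KO4 and 0.36 (SE 0.11, 95% interval 0.12 to 0.61, adjusted p = 0.061) in KO8.

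E2f7, which shares the atypical structure of E2f8, was at 29.96 and 32.0 CPM in WT NPCs, 35.1 and 31.7 in KO4 and 39.3 and 35.2 in KO8. KO4 overlapped WT and KO8 lay above it, with log2 fold changes of 0.11 (SE 0.11, adjusted p = 0.67) and 0.26 (SE 0.11, adjusted p = 0.17). E2f2 was at 15.8 and 16.3 CPM in WT, 17.3 and 16.0 in KO4 and 17.7 and 21.8 in KO8. Its log2 fold changes were 0.05 (95% interval -0.28 to 0.38, adjusted p = 0.91) and 0.29 (-0.04 to 0.62, adjusted p = 0.27).

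E2f1 was at 46.2 and 56.3 CPM in WT NPCs, at 52.6 and 54.4 in KO4 and at 53.8 and 59.1 in KO8. The WT libraries spanned more than the whole range of KO4, and the log2 fold changes were 0.07 (95% interval -0.17 to 0.31, adjusted p = 0.81) and 0.14 (-0.10 to 0.39, adjusted p = 0.46). The KO8 libraries of this stage differed from each other by 3.38 times the variance that counting reads in pairs would give. This was the most of any group, against 1.08 to 2.32 times elsewhere. Counting single reads would give a smaller variance, so the ratios to it would be larger. Between the clones, 1.59% of the genes tested in NPCs were called and none of the 4 members.

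The NPC cultures were also mixed by their markers. In the means over WT and KO libraries, the endoderm marker Gata6 stood at 445 and 391 CPM in the KO4 and the KO8 table. Of the 7 neural markers, Pax6 stood at 17.5 and 17.2 CPM and Sox1 at 7.84 and 11.5. The full lists lay closer together. All 7 neural markers summed to 438 and 506 CPM in these means, and all 5 endoderm markers to 478 and 426 CPM. Recovered neural markers (4 of 7) summed to 22.6 to 32.3 CPM in WT, 54.4 to 73.7 in KO4 and 44.3 to 99.8 in KO8.

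In primed cells, E2f5 and E2f7 were higher than WT in KO4, and no member was called in KO8. Library values were available for E2f2, E2f5, E2f6 and E2f7. Of 9520 genes tested, 19.6% were called in KO4 and 15.0% in KO8, with 5.70% higher and 4.22% lower in both clones. Markers moved in the same libraries: 2 of 4 primed cell markers summed to 61.7 to 66.2 CPM in WT, 41.8 to 41.9 in KO4 and 47.8 to 50.5 in KO8. The 1 recovered naïve marker of 7 was at 50.6 to 52.5, 33.5 to 36.6 and 29.9 to 35.6 CPM, and 5 of 7 neural markers, 1 of them at 0, summed to 34.4 to 39.1, 43.9 to 45.7 and 49.9 to 50.2 CPM. The 2 recovered primed markers and the 1 naïve marker were thus lower than WT in both clones, and the neural ones higher. In the means over WT and KO4 and over WT and KO8, all 4 primed markers summed to 1257 and 1337 CPM. All 7 naïve markers summed to 2800 and 2713 CPM there. The recovered markers were thus a small part of these 2 lists by level, and the part of the marker changes in the E2F values was not tested.

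E2f7 was at 40.6 and 42.6 CPM in primed WT cells, at 52.5 and 57.9 in KO4 and at 46.2 and 47.7 in KO8. The 3 groups did not overlap, with KO8 between WT and KO4. The log2 fold change in KO4 was 0.40 (SE 0.07, 95% interval 0.25 to 0.55, adjusted p = 4.4e-05) and that in KO8 was 0.17 (SE 0.07, 0.02 to 0.32, adjusted p = 0.12). Whether the clones differ was tested directly and missed the threshold, at 0.23 (SE 0.07, adjusted p = 0.082, against 3.22% of genes called between the clones).

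E2f5, one of the repressors that pair with pocket proteins, was at 36.0 and 32.5 CPM in WT, at 40.9 and 42.1 in KO4 and at 37.1 and 35.0 in KO8. KO4 lay above WT, and KO8 overlapped it. The log2 fold change was 0.27 in KO4 (SE 0.08, 95% interval 0.11 to 0.44, adjusted p = 0.014) and 0.07 in KO8 (SE 0.08, -0.09 to 0.24, adjusted p = 0.64). Without the shallower WT library the KO4 value was 0.20 and its adjusted p 0.22, and without the shallower KO4 library 0.26 and 0.083.

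E2f2 was at 24.4 and 29.7 CPM in primed WT cells, 33.2 and 27.8 in KO4 and 31.9 and 30.2 in KO8, with log2 fold changes of 0.17 (SE 0.10, adjusted p = 0.23) and 0.20 (SE 0.10, adjusted p = 0.18). E2f6 was at 26.6 and 24.3 CPM in WT, 28.1 in both KO4 libraries, and 23.0 and 28.9 in KO8. Its values in KO8 lay on both sides of WT, and its log2 fold changes were 0.15 (SE 0.10, adjusted p = 0.34) and 0.02 (SE 0.10, adjusted p = 0.92).

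**Figure D3:**
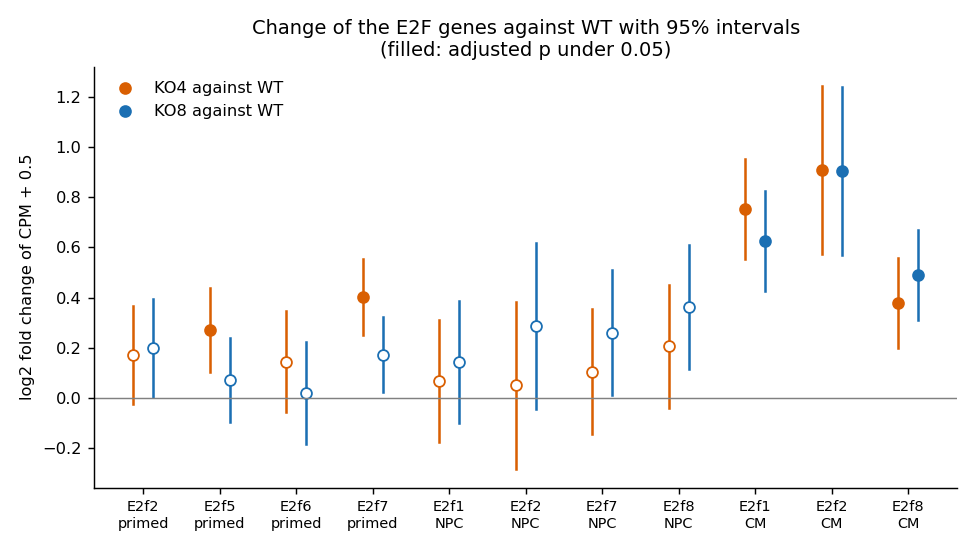
Log2 fold change of CPM + 0.5 against WT (points) with 95% intervals (lines) for each E2F gene with library values, KO4 in orange and KO8 in blue, filled where adjusted p was under 0.05. The CM values are all filled and above 0.3, and only E2f5 and E2f7 of KO4 are filled in primed cells and none in NPCs.

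Whether the KO effect differed between stages was tested as the mean of both clones minus WT. For E2f2 the effect in CMs exceeded that in primed cells, with primed minus CM at -0.69 (SE 0.17, adjusted p = 0.0041, against 24.8% of 8660 genes called), and that in NPCs, with NPC minus CM at -0.72 (SE 0.17, adjusted p = 0.0028, 23.4% called). For E2f1 the NPC effect minus the CM effect was -0.57 (SE 0.12, adjusted p = 0.0024, 23.2% of 9388 genes called). For E2f8 the stages were not told apart, at -0.14 (SE 0.12, adjusted p = 0.43). Primed and NPC effects were not told apart for E2f2, at 0.03 (SE 0.17, adjusted p = 0.95, 8.03% called), or for E2f7, at 0.11 (SE 0.11, adjusted p = 0.64, 7.15% called).

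For the members and stages without library values, the pooled means still give the difference between the clones, since both tables of a stage hold the same WT libraries. It is expressed as KO4 minus KO8 in percent of the mean level and has no test. In CMs, E2f4 was higher in KO4 by 47.0%, Tfdp1 by 39.4%, E2f7 by 29.6% and E2f3 by 26.2%, all above the upper quartile of all genes, which was 20.8%. The values of E2f8 and Tfdp2 were -11.3% and -6.81%, inside the quartiles.

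In NPCs all 10 members were lower in KO4 than in KO8, from -19.3% for E2f2 to -0.81% for Tfdp1, with a median of -9.04% against 0.60% over all genes, and 6 members lay below the lower quartile of -7.93%. In primed cells E2f7 (17.0%), E2f5 (14.1%), E2f6 (7.69%) and E2f3 (5.85%) lay above the upper quartile of 5.30%, and Tfdp1 (-9.46%) lay below the lower one. In naïve cells, where nothing else is available, E2f8 (17.2%), E2f2 (16.2%) and E2f4 (8.55%) were above the upper quartile of 6.66%, and E2f1 differed by -1.23% and Tfdp2 by -1.12%. In naïve cells 7 members were higher in KO4, of which only E2f2, E2f4 and E2f8 lay outside the quartiles. All 10 members were lower in KO4 in NPCs, so the opposite sign of these 7 there follows from that. The share of all genes with such a change of sign was not counted.

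**Figure D4:**
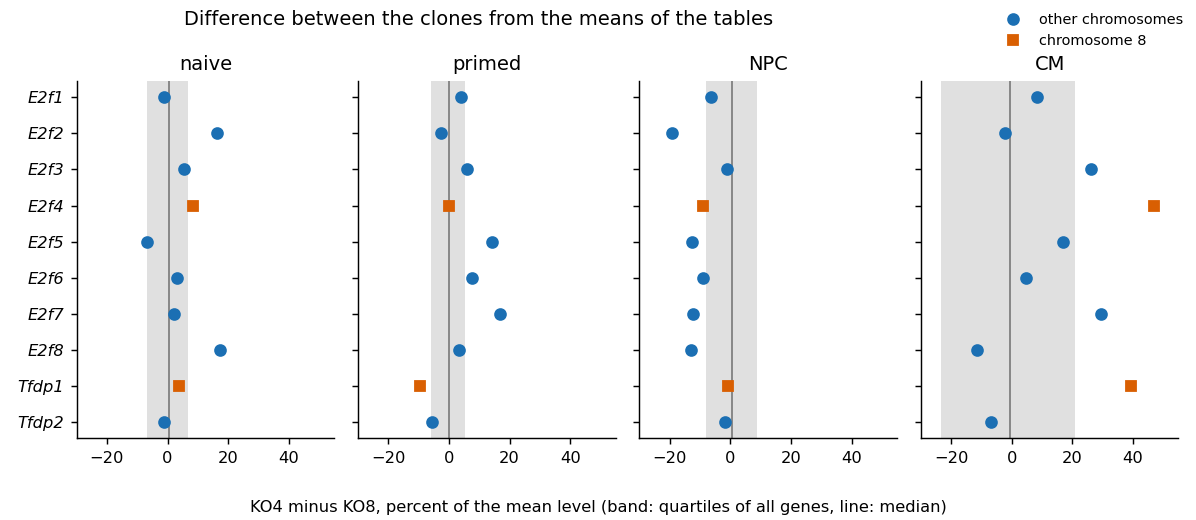
Difference between the clones for the 10 genes at each stage (KO4 minus KO8, percent of the mean level), with the quartiles of all genes as a band and their median as a line. All members lie left of 0 in NPCs, and E2f4 and Tfdp1 of chromosome 8 lie farthest right in CMs. The genes of chromosome 8 as a whole had a median of -1.82% in CMs (quartiles -24.9% and 24.2%), against -0.43% over all genes (-23.4% and 20.8%).

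Chromosome 8, where Tfdp1 and E2f4 lie, had a raised median in both clones. Over its genes with a mean of at least 5 CPM the median log2 fold change in KO4 was 0.44 (primed), 0.52 (NPC) and 0.52 (CM), and the KO8 medians were 0.46, 0.50 and 0.52, against -0.03 to -0.01 for genes elsewhere. The fold change of Tfdp1 and E2f4 themselves could not be recovered. All members with library values lie on other chromosomes. Of the genes compared over 9 group means, the level of E2f2 was most like those of Grtp1 (Pearson r = 0.985) and Syce2 (r = 0.983), both on chromosome 8. The 9 groups are 3 genotypes at 3 stages, so genes that differ between stages come out alike, and this is a description.

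Partners and targets of the E2F proteins were counted by lists chosen by name. Of the S phase targets, 12 of 51 had library values in CMs, and 10 of these were higher in both clones and none lower. The median log2 fold change of the 12 was 0.90 in KO4 and 0.42 in KO8. On chromosomes other than 8, 8 genes were tested, all 8 were higher in KO4 and 6 also in KO8, with medians of 0.91 and 0.37. Over all genes tested in CMs, 27.4% were higher in KO4, 13.7% in KO8 and 5.66% in both. Among these 6, the thymidine kinase gene Tk1 rose by 0.83 (adjusted p = 4.3e-06) and 0.52 (adjusted p = 0.00094), the primase gene Prim1 by 0.94 (adjusted p = 2.8e-07) and 0.44 (adjusted p = 0.00097) and the checkpoint kinase gene Chek1 by 1.08 (adjusted p = 3.7e-08) and 0.40 (adjusted p = 0.0014) on the log2 scale (limma). They were named after their values were seen. The origin gene Orc1 rose by 0.89 in KO4 and was at -0.01 in KO8 (adjusted p = 0.96).

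The 3 largest by the fixed rule were the replication genes Gins2 (0.91 and 0.76), Gins3 (0.92 and 0.68) and Gins4 (0.85 and 0.61), which lie on chromosome 8. In NPCs 17 S phase targets were tested and the 3 higher in both clones, Gins2, Gins3 and Gins4, all lie there, whereas none of the 13 on other chromosomes was called in either clone. In primed cells 5 were tested, and the 3 higher in both, Gins2, Gins3 and Asf1b, lie on chromosome 8 too. With chromosome 8 left out the count in both clones was therefore 6 in CMs and 0 at the other 2 stages.

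**Figure D5:**
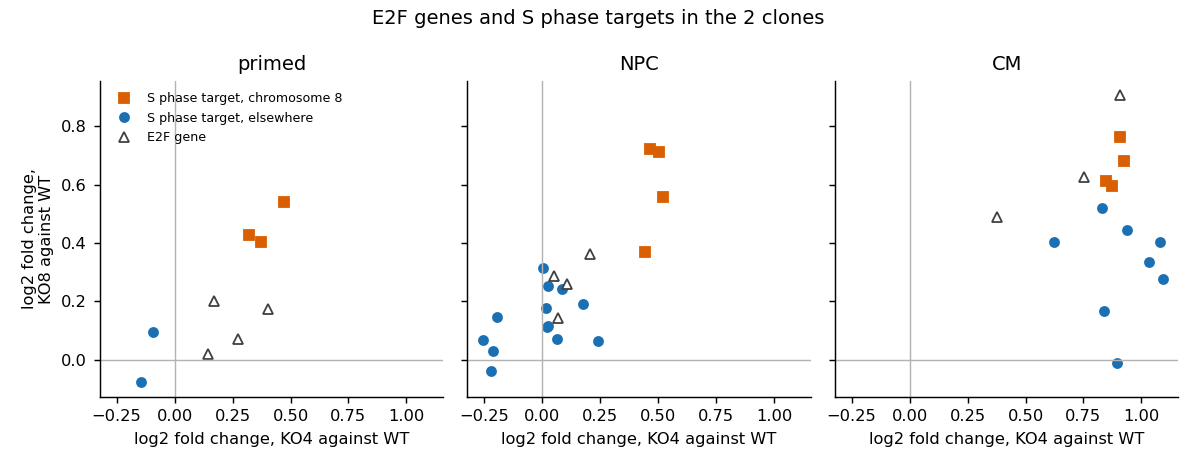
Log2 fold change in KO8 against that in KO4 for S phase targets on chromosome 8 (squares) and elsewhere (circles) and for the E2F genes (triangles) at each stage, with the WT libraries shared by both axes. In CMs the circles lie to the right of 0 as the E2F genes do, and in NPCs the circles lie around 0 while the squares are raised.

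Of the pocket proteins and their MuvB partners, 8 of 11 were tested at each stage. In CMs the pocket protein gene Rbl1 (0.26 and 0.28, adjusted p = 0.019 and 0.028) and the MuvB gene Lin54 (0.42 and 0.26, adjusted p = 0.00065 and 0.033) were higher in both clones, as were 5.66% of all genes. In NPCs Rbl2, a pocket protein gene of chromosome 8, was higher by 0.57 and 0.50, where 3.65% of all genes were higher in both clones. In primed cells Lin9 was higher by 0.36 and 0.30, where 5.70% of all genes were.

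Among G1 cyclins, kinases and inhibitors, 7 of 17 were tested in CMs and 3 were lower in both clones, against 7.73% of all genes. Of these, Cdkn2b (-1.44 and -1.59) and Cdkn2a (-1.10 and -1.21), encode inhibitors of the cyclin D kinases, and Cdk6 (-0.29 and -0.49), is such a kinase. Cdkn2a was instead higher in both clones in NPCs (0.83 and 0.88) and in primed cells (0.41 and 0.57). In primed cells the cyclin gene Ccne2 was also higher (0.51 and 0.72) and Ccnd2 lower (-1.53 and -0.99) in both clones. Over all genes tested, 3.65% were higher in both clones in NPCs, and 5.70% were higher and 4.22% lower in primed cells.

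No partner of the E2F6 complex was called in both clones in 1 direction at any stage, with 2 or 3 of 10 tested. Of the 11 germline genes that E2F6 and its complex are known to silence, all were tested in primed cells, where Ddx4 was higher (0.56 and 0.52) and Mael lower (-0.96 and -0.58) in both clones. Over all genes tested in primed cells, 5.70% were higher and 4.22% lower in both. None of the germline genes was called in both in NPCs (8 tested) or CMs (5 tested).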

How the data were processed

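mRNA was sequenced, from extracted total RNA, in 27 libraries in 12 groups. Per the labels and methods, the authors trimmed reads with Trim Galore 0.6.7, aligned them to mm9 with HISAT2 2.2, counted genes with featureCounts and compared each clone with WT in DESeq2 1.46.0. The deposited tables hold, for each gene, the mean of normalized reads over the libraries of a comparison (a signal) beside fold changes, errors, test statistics and p-values, and only the means were used here. Whole reads per library were solved jointly from the 2 tables of a stage, which share their WT libraries, with 6 unknowns per gene. This resolved 99.6%, 99.4% and 99.7% of genes with means from 8 to 1000 in primed cells, NPCs and CMs, and 4.17%, 1.65% and 12.9% of those from 1000 to 4000. Naïve cells (9 unknowns) were not resolvable, so the planned tests there were not made. A solution was kept where it held at least 0.99 of the score, and the steps were tested on simulated data. The score was higher where the 2 libraries of a group lay closer together. Whether this narrowed the spread used in the tests of the real data was not tested. E2f8 in CMs, with a mean of 1043 over KO8 and WT, lies in the range from 1000 to 4000. Recovered libraries could not be tied to replicate numbers and are called deeper and shallower.

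Size factors were medians of ratios, and genes with a mean of at least 0.5 CPM were tested as log2(CPM + 0.5) with limma 3.58.1 (intensity trend, R 4.3.3) on the 3 groups of a stage, with Benjamini-Hochberg adjustment over all genes and calls at adjusted p under 0.05. Fold changes are on that scale, which understates low genes. Stage differences used 18 libraries or, for genes not recovered at all 3 stages, the 12 of the stages compared. Nothing says that libraries of a group came from separate cultures, so p-values measure the spread between libraries, which may be technical. The members and lists were chosen with earlier results of these data known. All members were named, Zfp512b, up to 3 genes per list and stage with the largest smaller change of the clones, and the 2 genes most like a member. Exon lengths, positions and starts came from GENCODE on mm9. A promoter sequence of 1 member is not reported here.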

Additional observations from a re-analysis of the deposited data

Results flagged for a closer look

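The KO effect, taken as the mean of both clones minus WT, differed between stages for both activators that had library values in CMs. For E2f2 the effect in primed cells minus that in CMs was -0.69 on the log2 scale, and the effect in NPCs minus that in CMs was -0.72. For E2f1 the effect in NPCs minus that in CMs was -0.57. Each of these differences was tested in the same fit as the stages it compares. None was refitted with 1 library left out. The E2f2 effect in CMs, on which 2 of them rest, was 0.69 in both clones without the shallower WT library. The cardiac, neural and endoderm markers of the CM cultures moved in the same libraries, and their part in these differences was not tested.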

How the results depend on the processing

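No paired analysis was possible because the recovered libraries could not be tied to the replicate numbers of the labels. E2f1, E2f2 and E2f8 in CMs kept their direction and call in both clones under every alternative in which they could be fitted, as did E2f7 of KO4 in primed cells (0.33 to 0.47). Members called in KO4 primed cells numbered 2, and 1 without a filter on low values or at adjusted p under 0.01. Without any 1 library the count ran from 1 to 2, the lower value without the shallower WT or the shallower KO4 library, where E2f5 lost its call. In the fit of 18 libraries, which holds only E2f2, the counts were 0 for KO4 in primed cells and 1 for each clone in CMs. In KO8 NPCs the count ran from 0 to 1, with E2f8 called at 0.41 (adjusted p = 0.014) without the deeper KO8 library, and in CMs it stayed at 3. Without chromosome 8, S phase targets higher in both clones numbered 0 in primed cells, 0 in NPCs and 6 in CMs, and pocket proteins 0 in NPCs. Signs turned only for uncalled values. With 1 library left out, E2f5 (KO8, primed) ran from -0.0023 to 0.14, E2f6 (KO8, primed) from -0.14 to 0.18, E2f1 (KO4, NPC) from -0.066 to 0.21, and KO4 minus KO8 from -0.15 to 0.097 for E2f2 and -0.038 to 0.29 for E2f6 in primed cells, and from -0.020 to 0.035 for E2f2 in CMs. The last was -0.026 with the authors' size factors and -0.0043 with means under 1000 only, both alternatives added after the data were seen. Scaling each stage to its own total, also added after the data were seen, kept the direction and call of every stage difference and moved WT NPC minus primed from -1.26 to -0.73 for E2f2 and from -0.95 to -0.42 for E2f7. The number of all genes called in KO4 NPCs was 770 and ran from 9 to 1822 without 1 library, and that in KO8 NPCs was 1172 and ran from 102 to 2355. With only the 2 groups compared these were 1816 and 706, and without a filter the KO4 and KO8 counts in primed cells fell from 1863 and 1426 to 998 and 703. The causes of these shifts were not tested.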
